A study of Mus musculus with 6 samples.

Results

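RGS proteins, the regulators of G protein signalling, were followed through 2 kinds of cultured mouse CD8+ T cells. The set was defined by name as Rgs1, Rgs2, Rgs3, Rgs10, Rgs14, Rgs16, Rgs18 and Rgs19. A probe set belonged to it when the platform annotation gave 1 of these symbols as its only gene. Of the 8 genes, 6 were found in this way, with 14 probe sets among 36899 in all, and these 6 stand beside 15964 named genes in the whole series. No probe set was named for Rgs1 or Rgs18, so neither is described by a value.

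The cells came from P14 mice, which were female and of the C57Bl/6 background and whose transgenic T cell receptor recognises a viral peptide. Spleen and lymph node cells from these mice were given that peptide for 2 days, whichever cytokine followed. The central memory (CM) cells were then kept in IL-15 for 7 days, and the effector/effector memory (E/EM) cells in IL-2 for the same time, and the 2 kinds were then sorted for a high (CM) or low (E/EM) level of a surface protein. For either kind there was 1 array of each of 3 types (SubA, SubB and SubC), whose probe sets differ. All members with a usable value lay on SubA, and 1 of them, Rgs3, also on SubB. There were therefore no replicates and no test, and every difference below is one between these arrays. The labels do not say how many mice were used or whether 1 RNA preparation served all 3 arrays of a kind, and both kinds are cells made in culture, not memory cells taken from an animal.

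A heterotrimeric G protein is switched on when a receptor loads its alpha subunit with GTP, and it is switched off when the alpha subunit hydrolyses that GTP. RGS proteins bind the active alpha subunit and speed up the hydrolysis, which shortens the signal of receptors such as those for chemokines. In lymphocytes they are known for setting how strongly and how long a cell responds to chemoattractants. The family is divided by sequence into subfamilies. Rgs1, Rgs2, Rgs3, Rgs16 and Rgs18 belong to the R4 subfamily, Rgs10 and Rgs14 to the R12 subfamily, and Rgs19 to the RZ subfamily.

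The RGS genes differed modestly between the 2 kinds of cells, and in both directions. Only Rgs16 was lower in CM cells by 2-fold or more, and no member was as much higher. Rgs2 was 1.66-fold lower, Rgs10 was 1.29-fold higher, and Rgs3, Rgs14 and Rgs19 were within 1.10-fold. Among all 10946 named genes with a ratio, 5.61% were at least 2-fold lower in CM cells and 2.73% at least 2-fold higher, so 1 of 6 against this background is no result about the set. The median log2 ratio of the 6 members was -0.11, against -0.0025 for all named genes, with 4 members below 0 and 2 above. Below 0 lay 50.3% of all named genes.

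Ratios are given as log2 of CM over E/EM signal and are negative where CM cells had the lower signal. A ratio was taken where a probe set lay above the floor of its array type on both arrays. The floor is a background level read from control probe sets for bacterial genes, and the SubA floor was 31.28, the SubB floor 88.12 and the SubC floor 194.34. Of the 14 member probe sets, 9 gave a ratio, 1 lay above the floor in E/EM cells alone and 4 lay at or under it on both arrays. A spread after ± is the standard deviation (SD) over the probe sets of 1 gene, which is technical. For genes with 2 or more such probe sets, this SD had a median of 0.32. That median shows how far probe sets disagree and leaves out differences between cultures or animals. It is set beside the ratios below for scale only. Signals of different probe sets are not compared with each other, because probes differ in brightness.

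**Figure D1:**
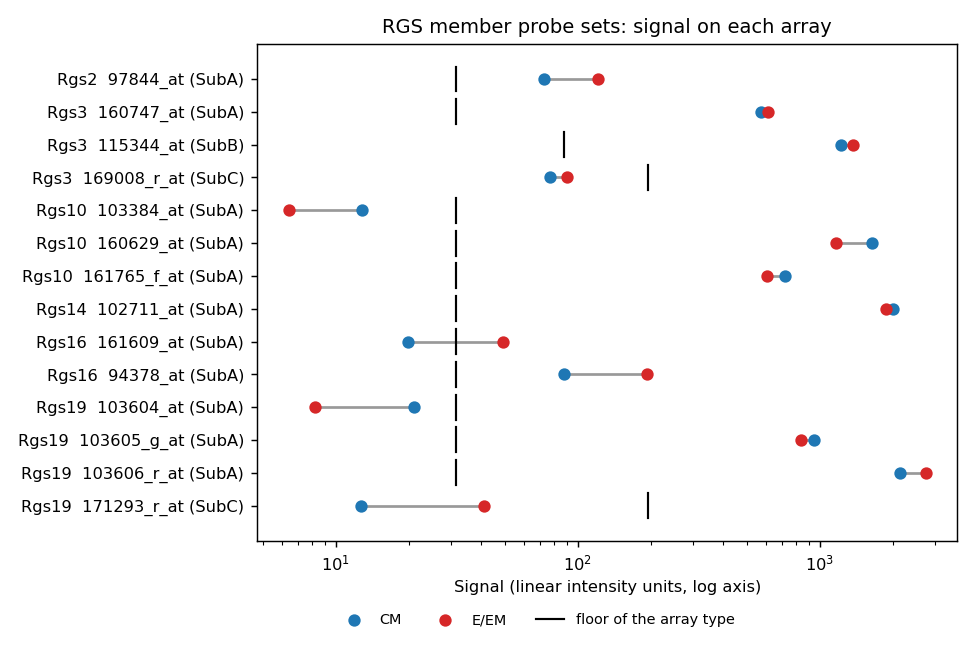
Signal (linear intensity units, log axis) of the 14 member probe sets in CM cells (blue) and E/EM cells (red), 1 array each, with the floor of the array type as a black bar. Both Rgs16 probe sets and the Rgs2 probe set lie higher in E/EM cells, whereas the 2 Rgs10 probe sets above the floor lie higher in CM cells.

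Rgs16, an R4 protein that acts on alpha subunits of the Gi and Gq classes and restrains the migration of T cells towards chemokines, had the lowest ratio of the set. Probe set 94378_at had a signal of 88.1 in CM and 193.5 in E/EM cells, a 2.20-fold lower value in CM cells (log2 ratio -1.14). The second probe set, 161609_at, had 19.9 in CM and 49.3 in E/EM cells. Its CM signal lay under the floor, so it gives only a bound, at least 1.58-fold lower. Both probe sets thus read lower in CM cells, at signals that were low throughout: the CM signal of 94378_at was 2.82 times the floor. Ratios at or below that of 94378_at were held by 3.41% of SubA probe sets with a ratio. Dim probe sets passed 2-fold more often: 7.32% of SubA probe sets with a weaker signal of 2 to 4 times the floor were at least 2-fold lower in CM cells, against 2.69% of those at 4 times the floor or more. RefSeq lists Rgs14 as an older name of Rgs16, and the Entrez gene identifiers of all 42 RGS family probe sets led to the same symbols as those used here.

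Rgs2, an R4 protein that prefers alpha subunits of the Gq class and was first found as a gene induced in stimulated blood mononuclear cells, was measured by 1 probe set. Its signal was 72.7 in CM and 120.8 in E/EM cells, a log2 ratio of -0.73. That difference is larger than the median SD over probe sets, but that SD leaves out differences between cultures, and the difference did not reach 2-fold. The CM signal was 2.32 times the floor, and 7.10% of SubA probe sets with a ratio had one as low or lower.

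Rgs3, the remaining measured R4 gene of the set, encodes long and short forms, of which the longest carry a PDZ domain. Its SubA probe set had a signal of 569.2 in CM and 612.2 in E/EM cells. On SubB another probe set had 1227.6 in CM and 1369.4 in E/EM cells. The 2 array types gave nearly the same small difference, -0.11 and -0.16, with a mean of -0.13 ± 0.04 (SD, 2 probe sets), which is under the median SD over probe sets. A SubC probe set, with 76.7 in CM and 90.2 in E/EM cells, lay under the floor on both arrays. Which forms each probe set detects was not analysed here.

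Rgs10 and Rgs14, both of the R12 subfamily, were at least 19.4 times the floor in both kinds of cells on every probe set that gave a ratio. Rgs10, a small protein that acts on Gi class alpha subunits, had the highest ratio of the set. Probe set 160629_at had 1649.1 in CM and 1171.1 in E/EM cells, and 161765_f_at had 715.2 in CM and 606.2 in E/EM cells. The log2 ratios were 0.49 and 0.24, with a mean of 0.37 ± 0.18 (SD, 2 probe sets), little more than the median SD over probe sets. The _f_ in a probe set name is the array maker's mark for probes that may detect related sequences. The third Rgs10 probe set lay under the floor on both arrays, with 12.8 in CM and 6.4 in E/EM cells. Rgs14, which also binds inactive Gi alpha subunits and small GTPases, had a signal of 1999.3 in CM and 1884.8 in E/EM cells. Its log2 ratio of 0.09 was smaller than the median SD over probe sets.

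Rgs19, also known as GAIP, an RZ protein first found by its binding to a Gi alpha subunit, had 2 probe sets above the floor that pointed in opposite directions. Probe set 103605_g_at had 941.8 in CM and 836.8 in E/EM cells, a log2 ratio of 0.17. Probe set 103606_r_at had 2138.1 in CM and 2735.5 in E/EM cells, a log2 ratio of -0.36. The mean of -0.09 ± 0.37 (SD, 2 probe sets) therefore has no settled direction. Both names carry a mark for shared or less specific probes. The other 2 probe sets, with signals of 21.1 in CM and 8.2 in E/EM cells on SubA and of 12.7 in CM and 41.0 in E/EM cells on SubC, lay under the floor of their array type.

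Upstream sequence is shown for Rgs16 and Rgs2, the members with the lowest ratios, and for Rgs10, the member with the highest. Each sequence is the 250 bases before the transcription start in RefSeq, build GRCm38.p6, written 5′ to 3′ on the strand of the gene. Rgs16 is at chr1:153740103-153740352 on the plus strand, Rgs2 at chr1:144004150-144004399 on the minus strand and Rgs10 at chr7:128418173-128418422 on the minus strand. Capitals mark matches to any of the 7 motifs named below.
Rgs16: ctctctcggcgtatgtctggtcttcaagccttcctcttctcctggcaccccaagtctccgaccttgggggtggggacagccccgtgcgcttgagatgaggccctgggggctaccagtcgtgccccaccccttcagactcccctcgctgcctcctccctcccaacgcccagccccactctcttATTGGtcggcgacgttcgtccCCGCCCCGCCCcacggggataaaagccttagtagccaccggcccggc
Rgs2: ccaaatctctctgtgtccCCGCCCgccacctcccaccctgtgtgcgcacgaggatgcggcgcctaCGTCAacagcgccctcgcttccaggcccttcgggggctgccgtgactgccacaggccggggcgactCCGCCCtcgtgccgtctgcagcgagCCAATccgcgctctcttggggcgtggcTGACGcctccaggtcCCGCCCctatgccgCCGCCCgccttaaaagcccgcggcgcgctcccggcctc
Rgs10: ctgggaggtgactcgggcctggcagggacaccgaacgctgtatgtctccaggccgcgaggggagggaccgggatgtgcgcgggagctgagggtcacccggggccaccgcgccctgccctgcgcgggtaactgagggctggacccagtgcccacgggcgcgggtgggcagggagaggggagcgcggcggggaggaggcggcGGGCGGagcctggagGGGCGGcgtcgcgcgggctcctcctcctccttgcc

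The motifs were searched on both strands, and a match is a description of the letters only. The GC box GGGCGG, which 32.7% of the 32851 RefSeq upstream windows of this length hold, was found in all 3 sequences. It had 2 matches in Rgs16, which overlap by 1 base and begin 47 and 42 bases before the start, 4 matches in Rgs2 and 2 in Rgs10. The CCAAT box, CCAAT, was present in Rgs16, from 68 bases before the start, and in Rgs2, from 94 bases before it, but not in the window of Rgs10. It is held by 33.8% of all windows. The core of the cyclic AMP response element, TGACG, had 2 matches in Rgs2, from 185 and 67 bases before the start, and none in the other 2 windows, against a share of 17.8% of all windows. No match was found in the 3 windows for a STAT-type site (TTCNNNGAA, 7.02% of all windows), an AP-1 site (TGANTCA, 6.75%), an NFAT-type core (GGAAA, 55.6%) or a TATA core (TATAA, 22.8%). The 3 sequences are rich in G and C, at 66.4% for Rgs16, 72.4% for Rgs2 and 76.4% for Rgs10, against a median of 52.4% over all windows.

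The members cluster on mouse chromosome 1, which holds 4 of the 8. In RefSeq the protein-coding genes Rgs2, Rgs13, Rgs1, Rgs21 and Rgs18 follow each other with 0 protein-coding genes between them, and Rgs8 and Rgs16 are direct neighbours. Of the first group only Rgs2 had a measured ratio. Rgs13, an R4 gene, lay under the SubB floor, with 20.4 in CM and 20.8 in E/EM cells, and no probe set was named for Rgs21. Rgs8, the neighbour of Rgs16 and also an R4 gene, read lower in CM cells on each of its 3 probe sets. A SubC probe set of Rgs8 had 180.6 in CM, under the floor, and 1274.2 in E/EM cells, which is at least 6.56-fold lower. The other 2 had 62.9 in CM and 96.0 in E/EM cells on SubA and 5498.7 in CM and 8118.6 in E/EM cells on SubC, with a mean of -0.59 ± 0.03 (SD, 2 probe sets). Both of those carry a mark for shared or less specific probes. With the floor halved, all 3 gave a ratio and the mean was -1.33. The size of the Rgs8 difference therefore depends on which probe set is read, while its direction was the same on all 3.

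The rest of the RGS family gives a frame for the members. Of 15 further RGS family genes and RGS binding proteins, 11 had a probe set and 6 a ratio, with a median of -0.27. No probe set was named for Rgs20, Rgs21, Rgs22 or Rgs9bp. None of the 6 mean ratios was at least 2-fold from 0, although 1 probe set of Rgs8 had the bound of at least 6.56-fold lower given above. Rgs12, an R12 protein with PDZ and phosphotyrosine-binding domains, came closest, at -0.99 ± 0.35 (SD, 3 probe sets). Its SubB signals were 448.6 in CM and 763.9 in E/EM cells, 180.7 in CM and 318.7 in E/EM cells, and 175.6 in CM and 460.7 in E/EM cells. All 3 probe sets of Rgs12 that gave a ratio were lower in CM cells, whereas Rgs10 and Rgs14 of the same subfamily had ratios above 0. Rgs5, an R4 gene, had -0.37, with its weaker signal only 1.18 times the floor.

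Rgs9 and Rgs11 belong to the R7 subfamily, whose proteins work in a complex with the beta subunit Gnb5, and they had 0.40 and 0.48. The R7 anchor Rgs7bp had -0.16. Rgs4 was above the floor on 1 of 3 probe sets and in CM cells alone, at least 2.05-fold higher. Rgs17 was above it on 1 of 4 and in E/EM cells alone, at least 1.58-fold lower. Rgs6 and Rgs7, also R7 genes, lay at or under the floor on both arrays with every probe set. Grouped by subfamily, after the values had been seen, all 5 R4 genes with a ratio lay below 0, from -1.14 to -0.13. Rgs4, also an R4 gene, had only its bound, in the opposite direction, and 50.3% of all named genes lay below 0. Both R7 genes with a ratio lay above 0, Rgs9 on 1 of 2 probe sets and Rgs11 on 1 of 3. The R12 genes were split, with 2 above and 1 below.

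**Figure D2:**
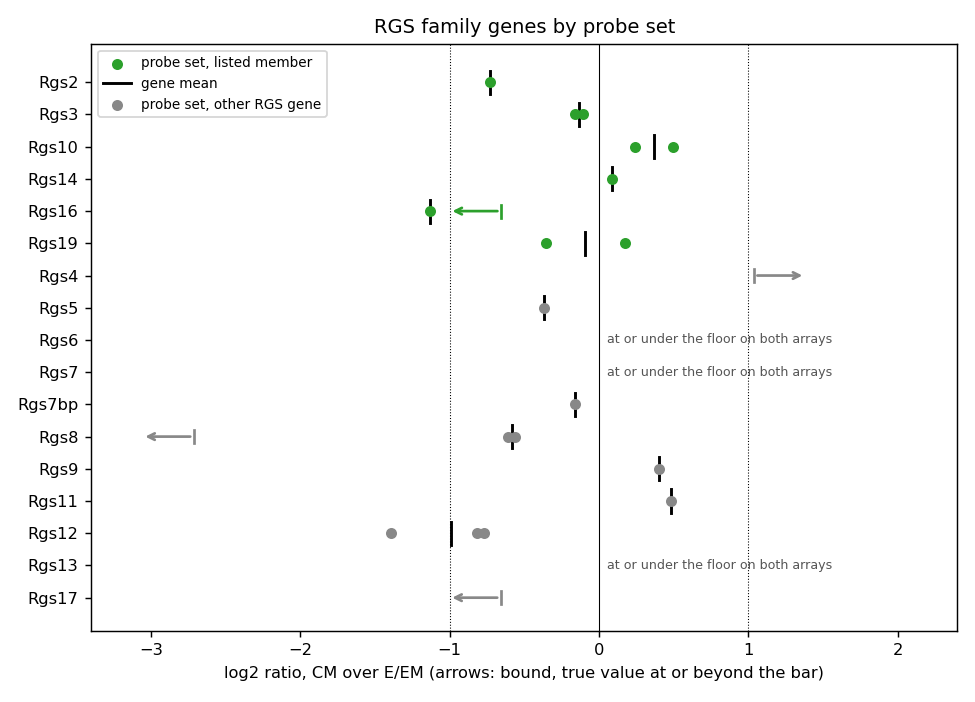
log2 of the CM over E/EM signal for each RGS family gene on the arrays: points are probe sets above the floor on both arrays (green for the listed members, grey for other family genes), black bars are gene means, and arrows start at a bound. Rgs16 is the only gene mean past the dotted 2-fold lines, and the 2 points of Rgs19 lie on opposite sides of 0.

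**Figure D3:**
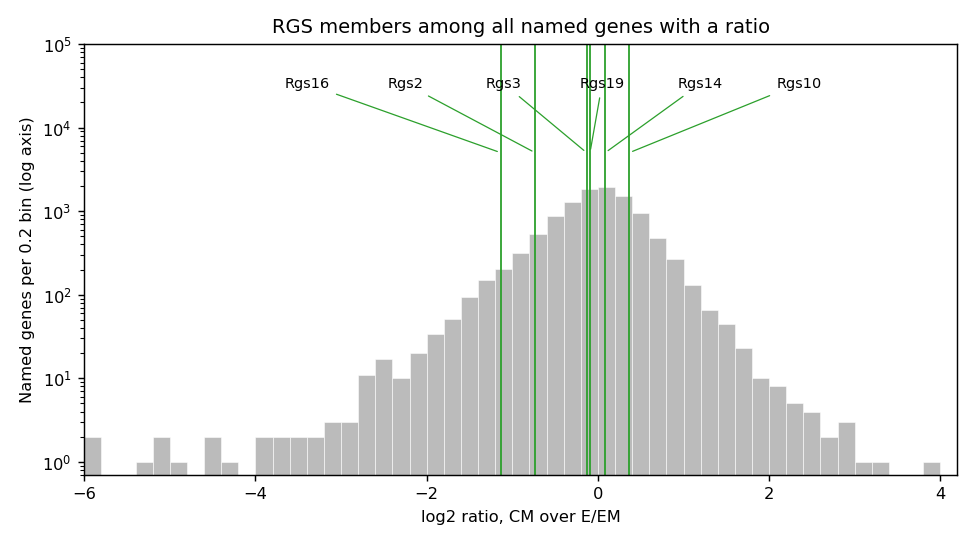
Number of named genes (log axis) by log2 of the CM over E/EM signal in bins of 0.2, with the 6 measured members as green lines. Rgs3, Rgs19 and Rgs14 stand in the tallest part of the distribution and Rgs16 stands in its lower flank, where 5.61% of genes are at least 2-fold lower.

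RGS proteins act between receptors, G protein subunits and effectors, so the other genes of the route were read from lists. Of the alpha subunits of all classes, 10 of 15 had a ratio, none was 2-fold different, and 5 lay on each side of 0, with a median of 0.03. Gnai3, a Gi class subunit and substrate of most members, had 0.79 ± 0.26 (SD, 2 probe sets). Gnaq, the Gq subunit that Rgs2 prefers, had -0.92 ± 0.02, and Gna15 had -0.87 ± 0.19 (SD, 2 probe sets each). The weaker signal of Gnaq was only 1.02 times the floor. The 2 probe sets of Gna11 disagreed (0.49 ± 0.72). On SubB, Gnaz, the Gz subunit, lay above the floor in E/EM cells alone, with bounds of at least 5.22-fold and 1.77-fold lower in CM cells. Its SubA probe set lay under the floor on both arrays, with 17.0 in CM and 15.8 in E/EM cells. The other Gi alpha subunits had -0.49 (Gnai1) and -0.12 ± 0.14 (Gnai2, SD, 3 probe sets).

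Among beta and gamma subunits 2 of 10 measured genes were at least 2-fold lower in CM cells and 0 higher, with a median of -0.21. They were Gngt2 at -1.44 and Gng8 at -1.39, with a weaker signal of 1.13 and 1.24 times the floor. Gnb5, the partner of the R7 proteins, had -0.88, the opposite sign to Rgs9 and Rgs11, and Gng3 had -0.74. The Gnb5 value rests on 1 probe set with a weaker signal of 1.58 times the floor, and Gnb5 had no ratio with the floor doubled. Of the receptor kinases and arrestins, which switch receptors off, 1 of 5 was at least 2-fold lower and 0 higher. Beside this stand the same 5.61% and 2.73% of all named genes. The median of the 5 was -0.46. That median was 0.0199 with the floor doubled, where Grk3 and Grk5 had no ratio and 3 genes were left. Grk3 had -1.64, with a weaker signal of 1.28 times the floor. Arrb1 had -0.77 ± 0.56 (SD, 2 probe sets) and Arrb2 had 0.21. Grk5 had -0.46, with a weaker signal of 1.61 times the floor. Other regulators of the nucleotide state of alpha subunits included none of 5 past 2-fold, with a median of -0.25. Arhgef11 lay above the floor in CM cells alone, at least 2.24-fold higher. Arhgef12, a guanine nucleotide exchange factor that carries an RGS-like domain, had -0.99 ± 0.29 over 4 probe sets, all of them lower in CM cells. Its value was -1.01 with quantile normalization and -0.72 with the brightest probe set alone. Ric8b had 0.58 ± 0.81 (SD, 2 probe sets), Gpsm3 -0.26 ± 0.02 (SD, 2 probe sets) and Ric8a -0.25.

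Downstream, 1 of 20 measured cyclic AMP effectors was at least 2-fold lower, the phosphodiesterase Pde4a at -1.28, and 0 were higher, with a median of -0.01. The shares of all named genes were 5.61% and 2.73%. Pde8a had 0.78, Crem -0.76 ± 0.08 (SD, 2 probe sets) and Adcy5 -0.54, and Rapgef3, a cyclic AMP sensor, was at least 6.19-fold lower. The Crem and Adcy5 probe sets with a ratio all carry a mark for shared or less specific probes. An unmarked SubB probe set of Adcy5 went the other way, at least 1.33-fold higher in CM cells. A further marked one on SubC had 193.8 in CM, under the floor, and 237.0 in E/EM cells. Pde4a and Pde8a each rest on 1 probe set, with a weaker signal of 1.96 and 1.48 times the floor. Neither had a ratio with the floor doubled. The adenylyl cyclase Adcy1 had bounds in opposite directions, at least 2.59-fold lower on SubB and at least 2.52-fold higher on SubC. Of 9 phospholipase C, protein kinase C and PI3K gamma genes none passed 2-fold, and their median was 0.33. There Prkcb had 0.88 ± 0.23 (SD, 3 probe sets), Prkcq 0.52 ± 0.01 (SD, 2 probe sets), Pik3r5 0.52 and Pik3cg -0.40 ± 0.59 (SD, 2 probe sets). Of the 18 measured receptors, 3 were lower by 2-fold or more and 3 higher by as much, against 5.61% and 2.73% of all named genes. The largest were Ltb4r1, a leukotriene B4 receptor, at -2.63 ± 1.83 (SD, 2 probe sets, which had -3.93 and -1.34), and Ptger2, a prostaglandin E2 receptor, at -2.16, against 1.58 for Ccr7 and 1.56 for S1pr1. The weaker signal was 1.40 times the floor for Ptger2 and 1.59 times for S1pr1, and with the floor doubled neither had a ratio. The S1pr1 value rests on 1 of its 3 probe sets, whose name carries the _f_ mark. Ccr4, a chemokine receptor, lay above the floor in E/EM cells alone, at least 3.93-fold lower in CM cells. Arhgef11, Adcy1 and Ccr4 are named for their bounds after their values had been seen. The spread of the receptors, from -2.63 to 1.58, was thus wider than that of the RGS members, from -1.14 to 0.37, though the sets differ in size.

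**Figure D4:**
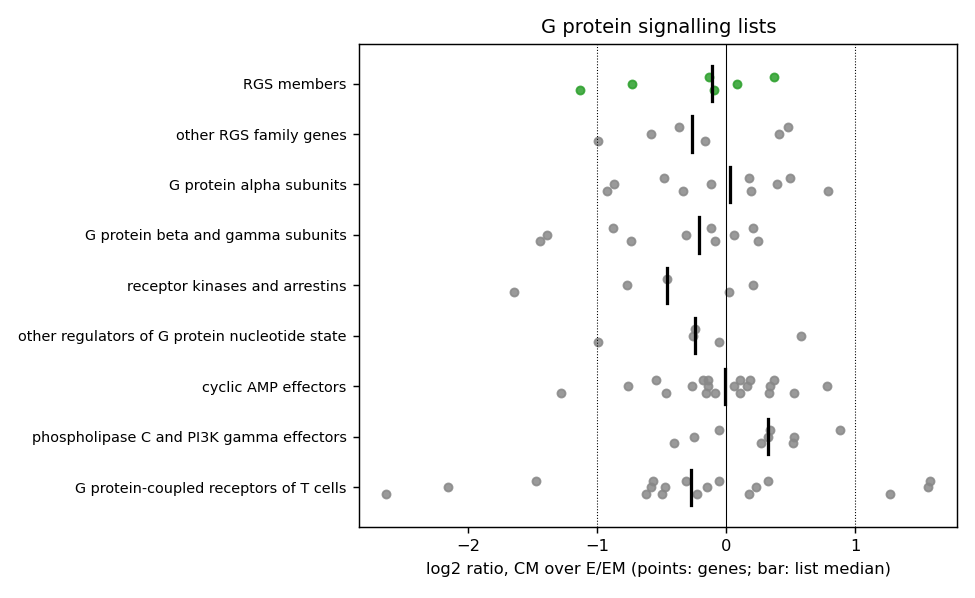
log2 of the CM over E/EM signal for the measured genes of each G protein signalling list (points), with the list median as a black bar and dotted lines at 2-fold. The 6 RGS members (green) span -1.14 to 0.37, and the 18 receptors span -2.63 to 1.58.

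The genes whose ratio lay nearest to that of Rgs16, by the absolute difference of the log2 ratio over the same 2 arrays, were Cyp2s1 at -1.14, Artn at -1.14 and H2-DMb1 at -1.17. Those nearest to Rgs10 were Dync1i1, Septin7 and Cenpc1, each at 0.37. A likeness over 1 pair of arrays describes the size of a ratio only.

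The T cell identity of both kinds of cells was checked on 9 markers, all above the floor in each, with Cd8a at 5882.7 in CM and 5133.8 in E/EM cells (log2 ratio 0.20). Cd5 was the 1 marker past 2-fold, with 856.0 in CM and 391.5 in E/EM cells (1.13). Cd3g had 3079.7 in CM and 5083.7 in E/EM cells (-0.72). The log2 ratio was 0.50 for Cd8b1, 0.42 for Cd2, 0.34 for Cd247, -0.01 for Cd3d, -0.09 for Cd3e and -0.29 for Thy1. Markers of other cells were not all absent, and RGS genes are used by B cells, myeloid cells and platelets too. Of 12 macrophage, monocyte and neutrophil markers 5 lay above the floor in CM and 6 in E/EM cells, with summed SubA signals of 634.7 and 867.8, while Adgre1, Itgam, Lyz2, Mpo, S100a8 and S100a9 lay at or under it. Of 8 dendritic cell markers 7 lay above it in each, with SubA sums of 940.5 and 1348.1. B cell markers had SubA sums of 707.2 and 705.8, with 6 of 9 above the floor in each. Platelet markers had 208.9 and 161.2, with 3 of 7 in CM and 2 in E/EM cells. Erythroid markers had 315.8 and 268.7, with 4 of 5 in each, but the 1 erythroid probe set on SubC, of Slc4a1, had 324.9 in CM and 689.0 in E/EM cells. The myeloid and dendritic sums on SubA lay in the same direction as Rgs16 and Rgs2, but on SubC they lay in the opposite one. The myeloid SubC sums were 275.6 in CM and 147.0 in E/EM cells. Of their signals only that of Elane in CM cells, 201.6, lay above the floor, and in E/EM cells Elane had 55.2. Fcgr1 lay under the floor and in the other direction, with 74.0 in CM and 91.8 in E/EM cells. Those of H2-Aa, the dendritic marker on SubC, were 441.9 and 276.4. They join a probe set above the floor, with 319.8 in CM and 252.9 in E/EM cells, and another under it, with 122.1 and 23.5. The dendritic SubB probe sets, with sums of 72.1 in CM and 42.3 in E/EM cells, lay under the floor. Myeloid and dendritic markers past 2-fold on SubA were Cd68 at -1.16 (89.4 in CM and 199.5 in E/EM cells), H2-Ab1 at -1.29 (211.0 and 516.5), H2-Eb1 at -1.23 (50.1 and 117.4) and, in the opposite direction, Itgax (130.3 and 43.1). The part of these markers in the differences of Rgs16 and Rgs2 was not tested. In RNA from bulk cells, fewer cells that express a gene and less RNA per cell cannot be told apart.

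**Figure D5:**
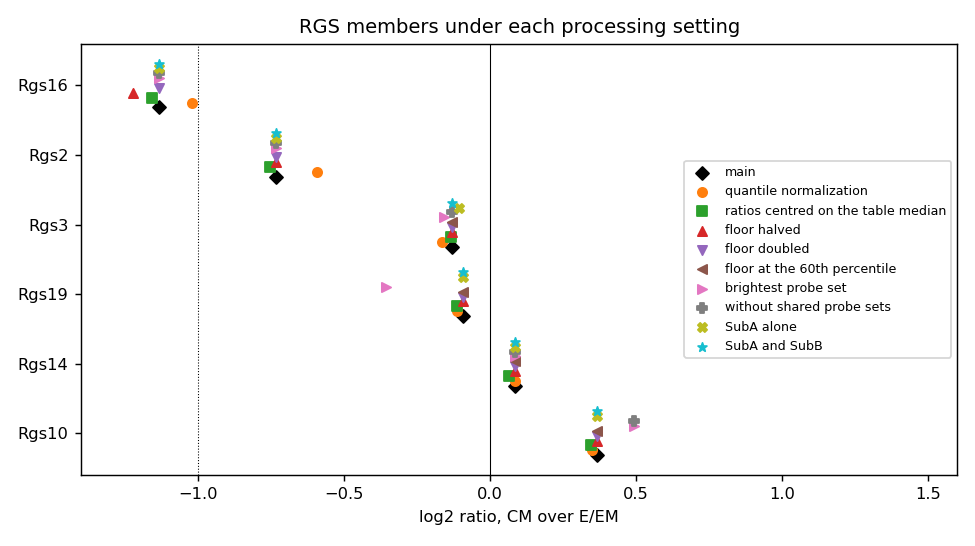
log2 of the CM over E/EM signal of each measured member with the values as reported (black diamonds) and under each processing alternative (coloured marks). Each member stays on its side of 0 wherever it has a value. For Rgs19 this is no check of direction, because no setting reads its probe set with a ratio above 0 by itself. Rgs2, Rgs14 and Rgs16 rest on 1 ratio each, which most settings repeat. Rgs16 lies between -1.22 and -1.02 and Rgs19 between -0.36 and -0.09.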

How the data were processed

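The deposited tables, 1 for each array type, hold linear intensities of probe sets. The steps the authors took to make them were not given in the sources used here. Each array's mean without its lowest and highest 2% lay near a common 500, and the 2 arrays of a table differed in it by at most 0.0086%, under the 5% limit set, so no further normalization was applied. Of the SubA probe sets 66.9% lay above the floor in CM and 69.1% in E/EM cells; the SubB shares were 64.3% and 68.7% and the SubC shares 47.0% and 47.2%. The floor was the higher of the 2 arrays' 90th percentiles over 15 bacterial control probe sets. A bound is the brighter signal over the floor.

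Genes came from the platform annotation, leaving out 66 control probe sets per table and probe sets with several symbols or none. A gene's value is the mean log2 ratio over its probe sets. The number of arrays limits the precision.

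The members and lists were chosen with earlier results of these data known. Named were all RGS family genes, T cell markers, the 4 largest ratios of each signalling list with any bound of at least 4-fold (smaller bounds past 2-fold were added after seeing values), and the 3 genes nearest to Rgs16 and to Rgs10 among those at 2 times the floor or more. Motifs and subfamilies were chosen after the values had been seen. Calculations used Python 3.11.15 with pandas 2.3.3 and were tested on simulated data. The 10 alternatives and 1 added later are in the closing section.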

Additional observations from a re-analysis of the deposited data

How the results depend on the processing

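No paired analysis was possible because there was 1 array per kind of cell and array type. The count of members at least 2-fold lower in CM cells, 1, was 0 with a floor set at the arrays' 60th percentile, where Rgs16 and Rgs2 lay under the floor and 4 members had a ratio, and 0 with a 3-fold rule. It stayed 1 under the other 8 alternatives. Among these, Rgs16 had -1.02 with quantile normalization, -1.16 with ratios centred on the table median and -1.22 with the floor halved. The rest read only its 1 SubA probe set with a ratio and so had to repeat -1.14. The count of members at least 2-fold higher was 0 in all 10. The members' median lay between -0.26 (brightest probe set) and -0.0037 (floor at the 60th percentile). The median of receptor kinases and arrestins went from -0.46 to 0.0199 with the floor doubled and with the floor at the 60th percentile, each leaving 3 genes. The other 78 of 80 medians of the further lists moved by less than the median SD over probe sets, counting the alternative chosen after seeing the data, in which genes with a bound only were added at their bound. Without probe sets marked as shared, Rgs19 had no ratio. Rgs2, Rgs14 and Rgs16 each rest on 1 ratio, and signal over background limits Rgs2 and Rgs16 most.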
